A study of Mus musculus with 4 samples.

Results

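Smooth muscle contractile genes encode the actin filaments, the myosin motor, the calcium handling proteins and the anchoring filaments that let smooth muscle cells shorten. The genes described are the 34 on a list of such genes that had at least 1 probe set annotated to that gene alone, out of 18193 genes on the array with a probe set of this kind. All 34 listed genes were found, among them Mkl1, which the array annotation names Mrtfa. The 34 genes had 72 probe sets, and the brightest probe set of each gene is given first.

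Gene expression was measured in endometriotic lesions, in which tissue like the lining of the uterus grows elsewhere in the body, on 4 Affymetrix arrays. Lesions came from mice fed a high-fat diet (2 arrays) or a casein diet (2 arrays), which the labels mark as control. The series title describes the mice as immunocompetent, and the sources used here do not give strain, age, lesion site or the number of animals behind an array. Values are the authors' linear intensities, and each difference is the mean log2 intensity on the high-fat diet minus that on the casein diet, with the moderated standard error of limma (SE, n = 2 arrays per diet).

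Smooth muscle contracts when calcium activates myosin light chain kinase, which phosphorylates the regulatory light chain, and it relaxes when myosin phosphatase removes that phosphate. Most contractile genes share a transcription factor, SRF, which binds a short element called the CArG box and is driven by the cofactors myocardin and MRTF-A. In endometriosis, smooth muscle and smooth muscle-like myofibroblasts are known parts of lesions, and the uterus itself has a thick muscle wall. Several listed genes are also active outside smooth muscle, and 12 of the 34 are known from skeletal or heart muscle as well.

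The contractile genes were mostly lower in lesions of high-fat diet mice. Of the 33 genes bright enough to test, 30 had lower mean values on the high-fat diet, where 51.4% of all 12797 tested genes did, and 3 had higher values. The median log2 difference was -0.46, against -0.01 over all tested genes. Both high-fat diet arrays lay below both casein diet arrays for 21 of the 33 genes (19.3% of all tested genes), and above them for 0 (16.6%). The diets overlapped for the other 12.

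After Benjamini-Hochberg adjustment over all genes, limma's test called none, neither among the contractile genes (adjusted p from 0.849 to 0.968) nor in the whole table (0% at an adjusted p under 0.05). At an unadjusted p under 0.05 in limma, 16 contractile genes were lower (2.73% of all tested genes) and 0 were higher (2.24%). The count of 16 was 7 without high-fat diet replicate 2 (2.33% of all tested genes) and 9 without casein diet replicate 2 (7.97%). It was 14 when casein diet replicate 1 was left out (2.56%), 15 when high-fat diet replicate 1 was left out (1.57%), and 12 with the replicate number as a block (2.45%). The list was chosen with results of these arrays known, so these counts describe it and do not test it. With 2 arrays per diet an exact permutation test of a single gene cannot give a two-sided p under 0.333. The RNA came from whole lesions, where fewer smooth muscle cells and less RNA per cell cannot be told apart.

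**Figure D1:**
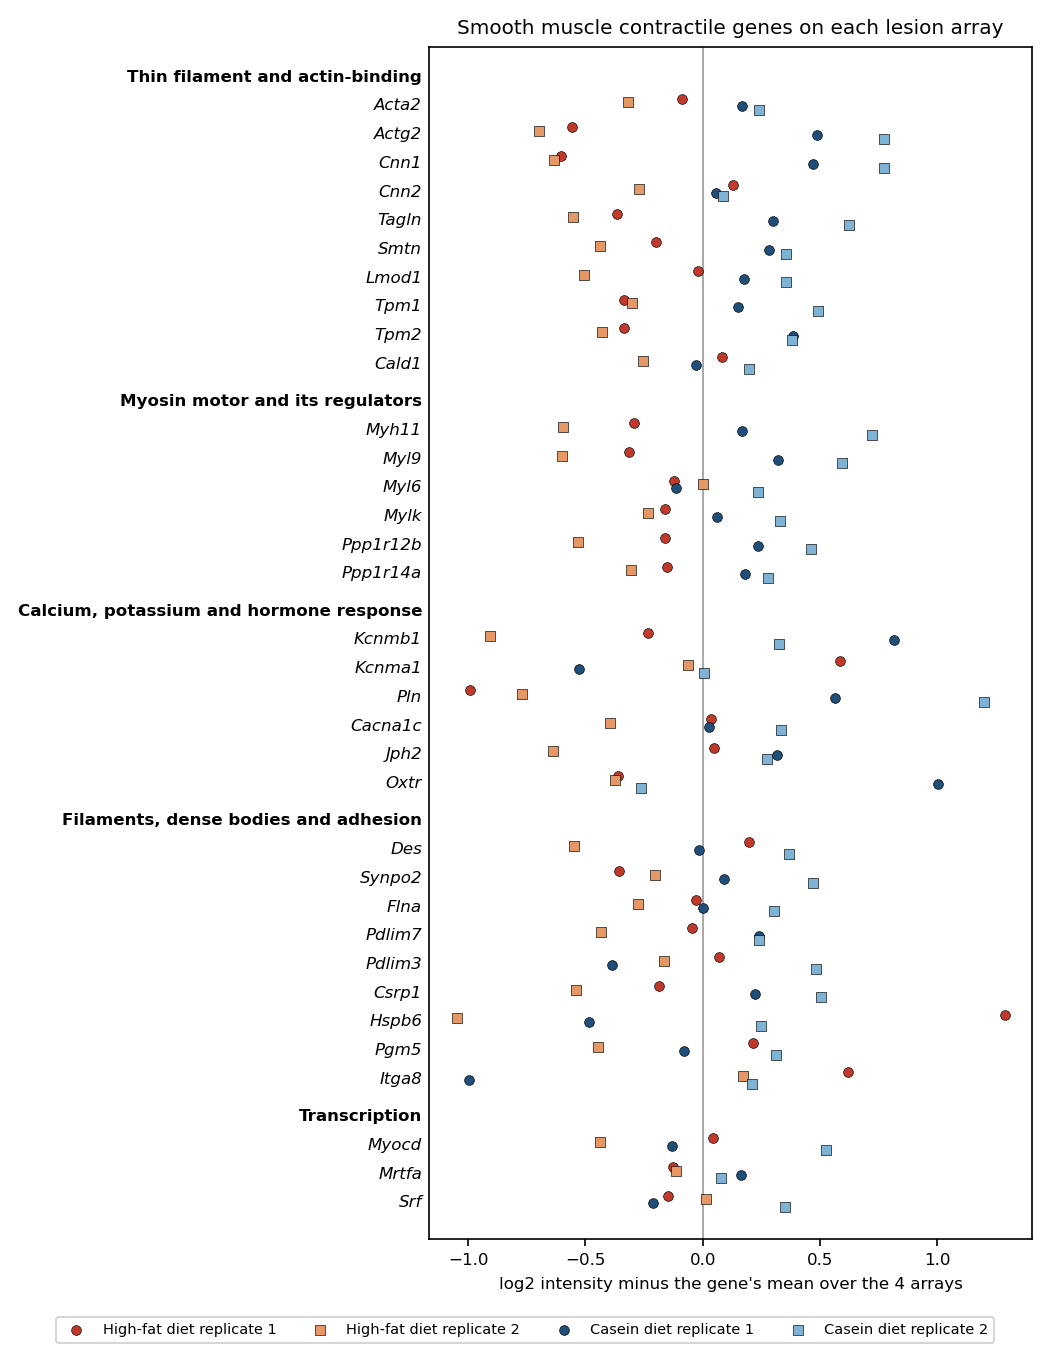
Each row is a gene and each symbol an array, placed at its log2 intensity minus the mean of that gene over the 4 arrays, with genes grouped by role. Both high-fat diet symbols lie to the left of both casein diet symbols for 21 of the 33 tested genes and for Kcnmb1, while Des, Hspb6, Itga8 and Srf are among those whose diets overlap.

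The promoters of these genes differ in whether the SRF element lies close to the start, as 4 of them show. RefSeq windows on GRCm38.p6, from 250 bases before to 50 bases after the annotated start, were available for 30 of the 34 genes. Acta2 (chr19:34255324-34255623, minus strand) and Myl9 (chr2:156775214-156775513, plus strand) are shown as genes lower on the high-fat diet with a match in the window. Cnn1 (chr9:22099003-22099302, plus strand) is shown as a lower gene with no match, and Srf (chr17:46556113-46556412, minus strand) as a gene with matches whose diets overlapped. Capitals mark each CArG box or CArG box with 1 G or C among its 6 inner bases.
Acta2: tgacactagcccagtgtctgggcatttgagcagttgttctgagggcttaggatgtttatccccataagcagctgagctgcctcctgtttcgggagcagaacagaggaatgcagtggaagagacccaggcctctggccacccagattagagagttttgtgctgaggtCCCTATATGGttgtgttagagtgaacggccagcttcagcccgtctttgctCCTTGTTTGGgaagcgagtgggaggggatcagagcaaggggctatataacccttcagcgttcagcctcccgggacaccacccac
Myl9: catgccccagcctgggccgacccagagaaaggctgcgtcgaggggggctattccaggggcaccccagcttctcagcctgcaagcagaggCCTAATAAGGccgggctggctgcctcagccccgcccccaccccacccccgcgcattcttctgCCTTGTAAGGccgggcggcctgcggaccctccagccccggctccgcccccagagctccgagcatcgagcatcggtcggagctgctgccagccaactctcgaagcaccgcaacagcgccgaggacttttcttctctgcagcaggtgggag
Cnn1: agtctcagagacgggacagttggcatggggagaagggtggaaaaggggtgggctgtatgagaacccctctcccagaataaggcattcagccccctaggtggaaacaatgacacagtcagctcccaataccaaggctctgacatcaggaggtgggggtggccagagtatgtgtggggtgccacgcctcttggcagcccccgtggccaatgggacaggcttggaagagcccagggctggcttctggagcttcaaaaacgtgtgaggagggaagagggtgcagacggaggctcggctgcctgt
Srf: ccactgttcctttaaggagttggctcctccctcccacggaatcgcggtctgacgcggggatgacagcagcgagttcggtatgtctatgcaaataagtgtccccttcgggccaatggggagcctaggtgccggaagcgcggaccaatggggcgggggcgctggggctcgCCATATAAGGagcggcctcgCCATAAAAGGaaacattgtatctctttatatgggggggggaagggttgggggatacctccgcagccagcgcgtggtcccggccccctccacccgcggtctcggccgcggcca

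The 2 marked elements of Acta2 begin 84 and 34 bases before the annotated start, those of Myl9 161 and 99 bases before it, and those of Srf 82 and 62 bases before it. A CArG box with only A or T inside was found for 4 of the 30 genes (Cnn2, Myl6, Myl9 and Srf), where 1.81% of 27025 genes in the table had one in at least 1 window. The element reads the same way on either strand, so 1 strand was searched, and it was searched alone. Among those 4 genes, the diets separated for Myl9 and overlapped for Cnn2, Myl6 and Srf. With 1 G or C allowed inside, a choice made after the strict search was seen, 10 of the 30 genes had a match, against 11.3% of all genes. The genes without a window in the table were Actg2, Tagln, Myh11 and Myocd. A match is a description of letters near the start, and no match says nothing of elements farther away or of SRF itself.

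All 10 thin filament genes were lower on the high-fat diet, and 8 of them lay below without overlap (19.3% of all tested genes). The median of the group was -0.64. Actg2, the actin of visceral smooth muscle such as that of gut and uterus, had intensities of 1384 and 1257 on the high-fat diet, against 2857 and 3481 on the casein diet. All 4 arrays separated by diet, and the high-fat diet level was 41.8% of the casein diet level (log2 difference -1.26, SE 0.15, unadjusted p = 0.0012 in limma). Cnn1, which encodes the calponin that binds actin in differentiated smooth muscle, had 578 and 566 on the high-fat diet and 1219 and 1503 on the casein diet. The high-fat diet pair was close together, and its level was 42.3% of the casein diet level (log2 difference -1.24, SE 0.14). Tagln, the actin-binding protein transgelin and an early marker of the smooth muscle lineage, had 3056 and 2680.2 on the high-fat diet and 4841 and 6055 on the casein diet. Its difference of -0.92 (SE 0.16) was larger than the gap between arrays of either diet.

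Acta2, the smooth muscle alpha-actin that myofibroblasts and pericytes also make, differed less. Its intensities were 7238 and 6159.9 on the high-fat diet and 8626 and 9088 on the casein diet, a log2 difference of -0.41 (SE 0.13). That probe set is of a kind that can match transcripts of more than 1 gene. The other probe sets of Acta2 differed by -1.18 and -0.84, and each separated the diets.

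Tropomyosins lie along the actin filament and gate access to myosin. Tpm2 had 4820.05 and 4521 on the high-fat diet and 7951 and 7918 on the casein diet, with the narrowest error of the contractile genes after Mrtfa (log2 difference -0.77, SE 0.09). Tpm1 had 2223 and 2278 on the high-fat diet and 3117 and 3947 on the casein diet (-0.64, SE 0.15). Another bright probe set of Tpm1 had 3128 and 1190 on the high-fat diet and 1834 and 2310 on the casein diet. Its diets overlapped (-0.09), while a further, dimmer Tpm1 probe set differed by -0.35 without overlap. These 2 genes also serve skeletal muscle, and some of their other probe sets behaved differently, as given below with the probe sets. Smtn, smoothelin, a marker of contractile smooth muscle, had 224 and 189.9 on the high-fat diet and 313 and 329.5 on the casein diet (-0.64, SE 0.13).

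The remaining thin filament genes had smaller or less even differences. Lmod1, leiomodin, which nucleates actin filaments in smooth muscle, had 123 and 87.8 on the high-fat diet and 141 and 159 on the casein diet. Its difference of -0.53 (SE 0.21) was -0.29 without high-fat diet replicate 2. Cald1, caldesmon, and Cnn2, a calponin found in many cell types, differed by -0.17 and -0.14, and their diets overlapped. Without high-fat diet replicate 2 the difference of Cald1 was -0.002 and that of Cnn2 was 0.06.

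The myosin group was also lower throughout, with 6 of 6 genes below the casein diet and a median of -0.58. Of these, 5 lay below without overlap (19.3% of all tested genes). Myh11, the smooth muscle myosin heavy chain and the most specific marker of mature smooth muscle on the list, had 1406 and 1138 on the high-fat diet and 1932 and 2832 on the casein diet. The diets separated by a gap smaller than the one between the 2 casein diet arrays, and the log2 difference was -0.89 (SE 0.25, unadjusted p = 0.0244 in limma). Myl9, the regulatory light chain that is phosphorylated at contraction, had 2464 and 2017 on the high-fat diet and 3824 and 4617 on the casein diet (-0.91, SE 0.17). Myl6, the essential light chain that many cell types share, had 323 and 352 on the high-fat diet and 324 and 413 on the casein diet, and its diets overlapped (-0.12, SE 0.16, or 0.05 without casein diet replicate 2).

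Genes for the light chain kinase and for a subunit and an inhibitor of the phosphatase had lower values as well. Mylk, the myosin light chain kinase, had 3021 and 2870.1 on the high-fat diet and 3523 and 4237 on the casein diet. Its difference of -0.39 (SE 0.13) was -0.26 without casein diet replicate 2. Ppp1r12b, a targeting subunit of myosin phosphatase, had 469.6 and 362 on the high-fat diet and 617 and 721 on the casein diet (-0.69, SE 0.18). Ppp1r14a, the phosphatase inhibitor CPI-17, had 225 and 202 on the high-fat diet and 282 and 303 on the casein diet (-0.46, SE 0.11). A kinase, a phosphatase subunit and a phosphatase inhibitor thus stood on the same side, and none of them passed limma's adjusted test (adjusted p = 0.863 for each).

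**Figure D2:**
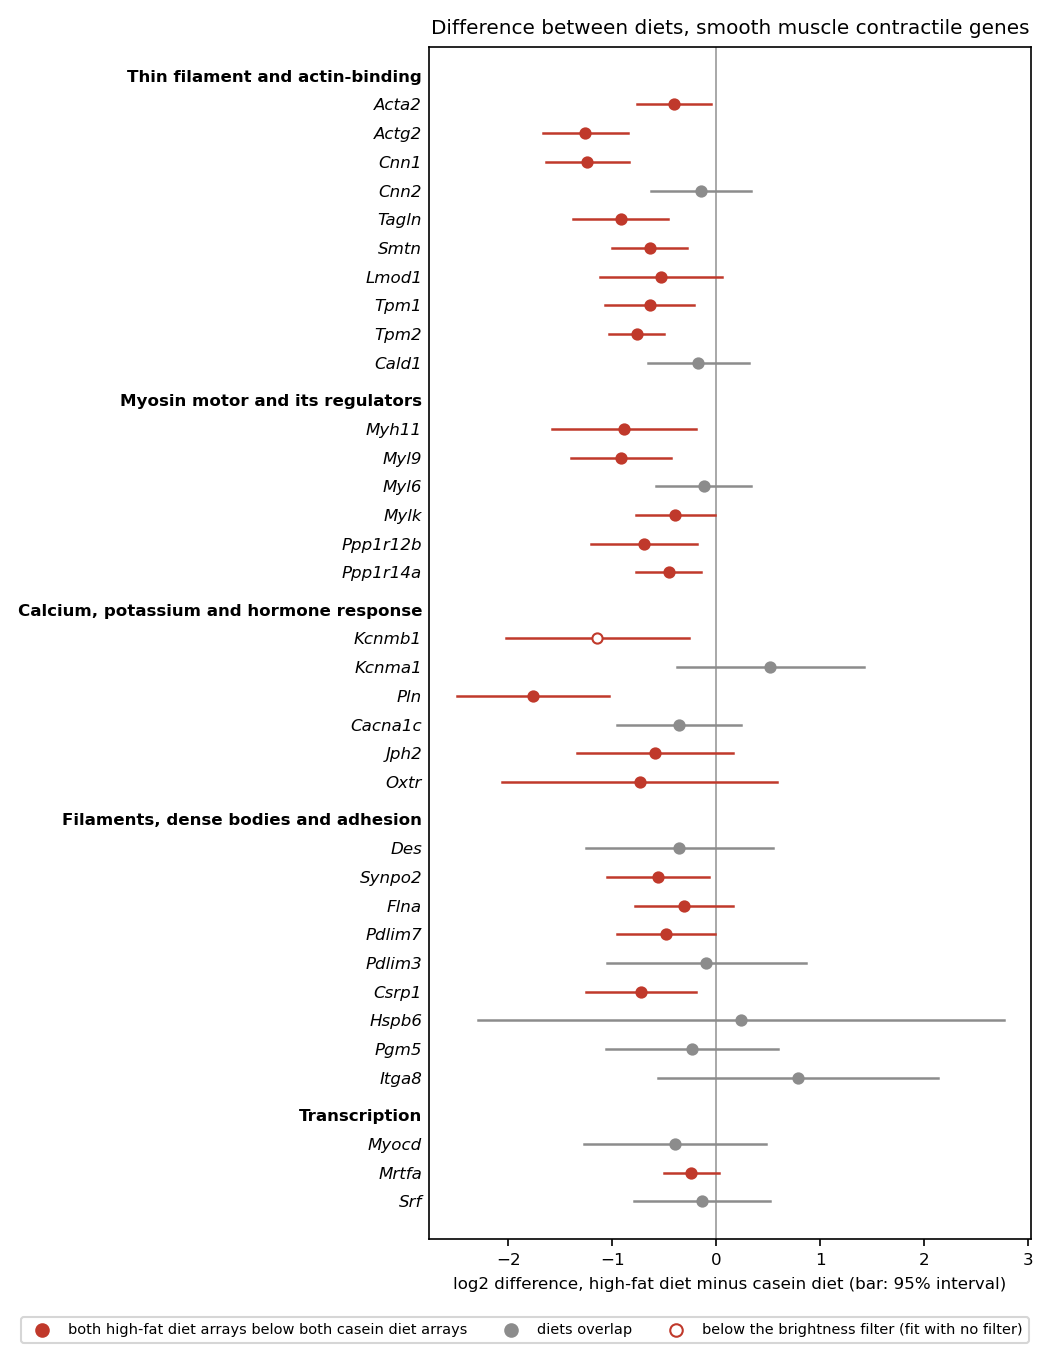
Points are log2 differences, high-fat diet minus casein diet, with 95% intervals from limma, red where the diets did not overlap and grey where they did. Actg2 and Cnn1 lie at -1.26 and -1.24, the point of Pln at -1.76 rests on high-fat diet values below the brightness filter, and the widest interval is that of Hspb6.

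Of the 5 tested genes of calcium, potassium and hormone response, 4 were lower on the high-fat diet, 3 without overlap (19.3% of all tested genes). The group median was -0.59, or -0.25 without high-fat diet replicate 2 and -0.74 with high-fat diet replicate 1 left out. Pln, phospholamban, the brake on the calcium pump of the sarcoplasmic reticulum in smooth, slow and heart muscle, was dim. Its intensities were 24.4 and 28.4 on the high-fat diet and 71.6 and 111 on the casein diet. Both high-fat diet values lay below the brightness at which genes were tested (33.9), so Pln, counted among the 16 lower genes, was tested only because of its casein diet values. The fitted log2 difference was -1.76, or -1.32 with a pseudocount of 16, and its size is uncertain. The other probe sets of Pln differed by -1.34 and -1.39.

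The channel that limits smooth muscle contraction, BK, is built from a pore subunit, Kcnma1, and a smooth muscle subunit, Kcnmb1, and the 2 genes stood on opposite sides. Kcnmb1 had 26.8 and 16.9 on the high-fat diet and 55.6 and 39.6 on the casein diet. Its mean lay below the brightness filter, so it was not among the 33 tested genes. With no filter, the diets did not overlap and the log2 difference was -1.14 (SE 0.31, adjusted p = 0.853 in limma). Kcnma1, which neurons and other cells also express, had 255 and 163 on the high-fat diet and 118 and 171 on the casein diet. Its diets overlapped, with a difference of 0.52 (SE 0.32) that was 0.20 with high-fat diet replicate 1 left out and 0.85 with high-fat diet replicate 2 left out. Its other probe sets differed by 0.76, 1.02, 0.45 and 0.07, and both high-fat diet arrays lay above both casein diet arrays in the first 3 of these.

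Oxtr, the oxytocin receptor of uterine muscle and epithelium, had 211 and 209.9 on the high-fat diet and 545 and 226 on the casein diet. The difference of -0.74 (SE 0.47) came mostly from casein diet replicate 1, and it was -0.10 without that array and -1.37 with casein diet replicate 2 left out. Jph2, junctophilin, which holds calcium stores next to the cell membrane, had 319.7 and 198 on the high-fat diet and 385 and 374 on the casein diet (-0.59, SE 0.27). Its difference was -0.94 with high-fat diet replicate 1 left out and -0.25 with high-fat diet replicate 2 left out. Cacna1c, the pore of the L-type calcium channel, had 172 and 128 on the high-fat diet and 171 and 212 on the casein diet, so the diets overlapped (-0.36, SE 0.21, or -0.57 without high-fat diet replicate 1 and -0.14 with high-fat diet replicate 2 left out).

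Genes of filaments, dense bodies and adhesion were the least even group. Of the 9, 7 were lower, 4 without overlap (19.3% of all tested genes), and the median was -0.31. That median was -0.15 without casein diet replicate 2 and 0.02 with high-fat diet replicate 2 left out. Csrp1, a LIM protein of smooth muscle, had 1174 and 918 on the high-fat diet and 1556 and 1893 on the casein diet (-0.72, SE 0.19). Synpo2, an actin-bundling protein of dense bodies and Z-discs, had 984 and 1094 on the high-fat diet and 1340.3 and 1741 on the casein diet (-0.56, SE 0.17, or -0.37 without casein diet replicate 2). Pdlim7, an adaptor between actin and kinases, had 572 and 437 on the high-fat diet, against 697.6 and 698.1 on the casein diet (-0.48, SE 0.17, or -0.29 without high-fat diet replicate 2). In these 3 genes the diets did not overlap.

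Flna, the actin crosslinker filamin A, which most cells express, had 1686 and 1422 on the high-fat diet and 1723 and 2124 on the casein diet. The nearest arrays of the diets almost touched, and the difference was -0.31 (SE 0.17), or -0.15 with casein diet replicate 2 left out and -0.18 with high-fat diet replicate 2 left out. Des, desmin, the intermediate filament of all muscle types, had 1771 and 1057 on the high-fat diet and 1529 and 1996 on the casein diet. Each diet thus held a high and a low array for Des, and its difference of -0.35 (SE 0.32) was 0.02 without high-fat diet replicate 2.

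Among the other genes of this group, Hspb6, a small heat shock protein of muscle, had 199 and 39.4 on the high-fat diet and 58.2 and 96.8 on the casein diet (0.24, SE 0.89). Its difference ranged from -0.93 to 1.41 when 1 array was left out. Itga8, an integrin subunit of smooth muscle and stromal cells, had 1078 and 791 on the high-fat diet and 352 and 812 on the casein diet. Its difference of 0.79 (SE 0.47) was the highest of the list and was 0.19 with casein diet replicate 1 left out and 1.39 with casein diet replicate 2 left out. Pdlim3 and Pgm5, both of muscle adhesion sites, differed by -0.09 and -0.23 and overlapped between diets. Pdlim3 was 0.34 with casein diet replicate 2 left out and 0.02 with high-fat diet replicate 2 left out, and Pgm5 was 0.10 with the last of these left out.

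Of the 3 transcriptional regulators, 1 lay below on the high-fat diet without overlap (19.3% of all tested genes). Myocd, myocardin, the smooth muscle cofactor of SRF, had 209.8 and 150.1 on the high-fat diet and 186 and 293 on the casein diet. The diets overlapped, and the difference of -0.39 (SE 0.31) ranged from -0.72 to -0.07 when 1 array was left out. Srf had 295 and 330.0 on the high-fat diet and 282 and 417 on the casein diet, a difference of -0.14 (SE 0.23) that was 0.15 without casein diet replicate 2. Mrtfa, the actin-sensing cofactor, had 172 and 174 on the high-fat diet and 210.4 and 198 on the casein diet. Its diets did not overlap, and the difference was small (-0.24, SE 0.09).

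Other probe sets of the same genes were set beside the brightest ones as a check. There were 38 of them, for 20 of the 34 genes, and 30 had the sign of the brightest probe set. At or above the brightness filter it was 24 of 29. The 5 of opposite sign belonged to Tpm2, Synpo2, Pdlim7 and Ppp1r12b. The clearest were 1 probe set of Tpm2, with 412 and 50.2 on the high-fat diet and 64.6 and 76.9 on the casein diet, and 1 of Synpo2, with 460.0 and 117 on the high-fat diet and 96.8 and 166 on the casein diet. In both, high-fat diet replicate 1 alone was high. The same array stood out for a Tpm1 probe set below the brightness filter, which had 33.9 and 9.20 on the high-fat diet and 7.54 and 8.72 on the casein diet. With the mean of all probe sets of a gene, the difference of Tpm1 was 0.01.

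**Figure D3:**
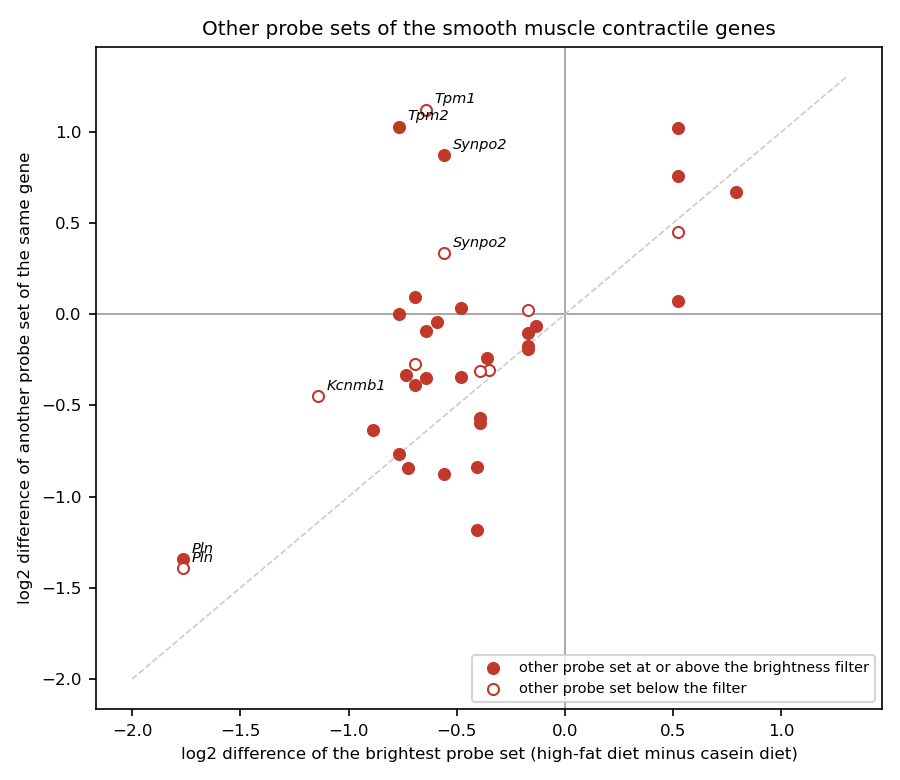
Each point sets the log2 difference of another probe set (vertical) against that of the brightest probe set of the same gene (horizontal), high-fat diet minus casein diet, and the dashed line marks equal values. Most points share a sign, and the exceptions at the top left are probe sets of Tpm1, Tpm2 and Synpo2.

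High-fat diet replicate 1 was also the array with the most RNA of skeletal muscle markers. Of 16 skeletal muscle markers on the array, 13 were bright enough to test. The summed intensity of all 16 was 35821 and 1062 on the high-fat diet and 948 and 1171 on the casein diet. Acta1, the skeletal alpha-actin, had 6254 and 508 on the high-fat diet and 446 and 679 on the casein diet. Of 11 markers of heart or slow muscle, 6 were bright enough to test. All 11 summed to 1757 and 336 on the high-fat diet and 316 and 377 on the casein diet. The heart gene Myh6 was at most 10.6 on any array. Of the 33 tested contractile genes, 27 were higher in high-fat diet replicate 1 than in high-fat diet replicate 2, where 47.0% of all tested genes were. The median of the contractile genes was -0.64 with high-fat diet replicate 1 left out, and -0.29 with high-fat diet replicate 2 left out. The part of skeletal muscle in this spread was not tested. Leaving out the 12 genes also known from skeletal or heart muscle left 19 of 21 lower (51.4% of all tested genes), with a median of -0.41.

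The casein diet arrays had RNA of gastric markers, unevenly. Of 11 markers of the gastric surface and glands, 7 were bright enough to test. All 11 summed to 443 and 451 on the high-fat diet and 65282 and 10015 on the casein diet. Tff1, a trefoil factor of stomach surface cells, had 162 and 179 on the high-fat diet and 21721 and 4690 on the casein diet. The contractile genes ran the other way within the casein diet, since 29 of 33 were higher in casein diet replicate 2 than in casein diet replicate 1, where 52.0% of all tested genes were. The contractile median was -0.53 with casein diet replicate 1 left out, and -0.37 with casein diet replicate 2 left out. Of 11 markers of the gut wall (enteric pacemaker cells, neurons and gut muscle), 6 were bright enough to test. On the high-fat diet 2 of the 6 were lower (51.4% of all tested genes) and 4 were higher, with a median of 0.18. All 11 gut wall markers summed to 1493 and 1746 on the high-fat diet and 1332 and 1576 on the casein diet. Kit and Ano1 of pacemaker cells differed by 0.25 and 0.31. Vip, a neuropeptide of enteric and other nerves, had 19.6 and 19.5 on the high-fat diet and 48.9 and 145 on the casein diet (-2.11, SE 0.58). Its high-fat diet values lay below the brightness filter, so Vip was tested only because of its casein diet values. Among the other neuronal genes on this list, Nos1 differed by 0.28 and Elavl4 was at most 11.9 on any array. The list also holds Uchl1 and Prph. Vip, Nos1 and Elavl4 were chosen after their values were seen. Barx1, a transcription factor of the stomach mesenchyme, had 44.5 and 38.7 on the high-fat diet and 87.7 and 79.5 on the casein diet (-1.01, SE 0.13, adjusted p = 0.849 in limma). The part of stomach wall in the difference of the contractile genes was not tested.

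Markers of pericytes, of fibroblasts and myofibroblasts, and of endothelium had medians near or above 0. Pericyte markers, all 9 of them tested, were higher for 7 on the high-fat diet, with a median of 0.22, and Rgs5 had 3825 and 4443 on the high-fat diet and 1650.3 and 3551 on the casein diet. Their sum was 7617 and 7802 on the high-fat diet and 3959 and 6904 on the casein diet, and the median was 0.001 without casein diet replicate 1 and 0.52 with casein diet replicate 2 left out. Fibroblast and myofibroblast markers, 12 of 12 tested, had a median of 0.06 that was -0.08 without high-fat diet replicate 1 and 0.33 with casein diet replicate 2 left out, and Col1a2 had 16586 and 13677 on the high-fat diet and 14650 and 15489 on the casein diet. Their sum was 60608 and 51039 on the high-fat diet and 49905 and 57637 on the casein diet. Endothelial markers, 10 of 10 tested, were all higher on the high-fat diet, with a median of 0.46 and sums of 2567 and 2654 against 1550.1 and 1992 on the casein diet. Their median was 0.28 without casein diet replicate 1.

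Markers of endometrial stroma and uterus were all bright enough to test, and those of mesothelium were not. For endometrial stroma and uterus, 12 of 12 genes were tested, with a median of 0.06 and sums of 15391 and 15244 on the high-fat diet against 13555 and 15650 on the casein diet. That median ranged from 0.04 to 0.30 when 1 array was left out. Esr1, the estrogen receptor, had 3319 and 4046 on the high-fat diet and 3800 and 3775 on the casein diet, and Pgr, the progesterone receptor, differed by -0.39 (SE 0.09). Mesothelial markers, 9 of 11 tested, were lower for 8 on the high-fat diet, where 51.4% of all tested genes were. Their median of -1.11 ranged from -1.77 to -0.59 when 1 array was left out. At an unadjusted p under 0.05 in limma, 4 of the 9 were lower (2.73% of all tested genes) and 0 were higher (2.24%). They were Upk3b, Upk1b, Msln and Rspo1, with differences of -2.43, -0.43, -1.66 and -0.51, and these 4 were named after their values were seen. The high-fat diet values of Upk3b and Msln lay below the brightness filter, so these genes were tested only because of their casein diet values. All 11 mesothelial genes summed to 2715 and 4596 on the high-fat diet and 19028 and 5841 on the casein diet. The keratins Krt8, Krt18 and Krt19, which gastric epithelium also makes, were the brightest of them. The part of these cell types in the contractile gene difference was not tested.

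**Figure D4:**
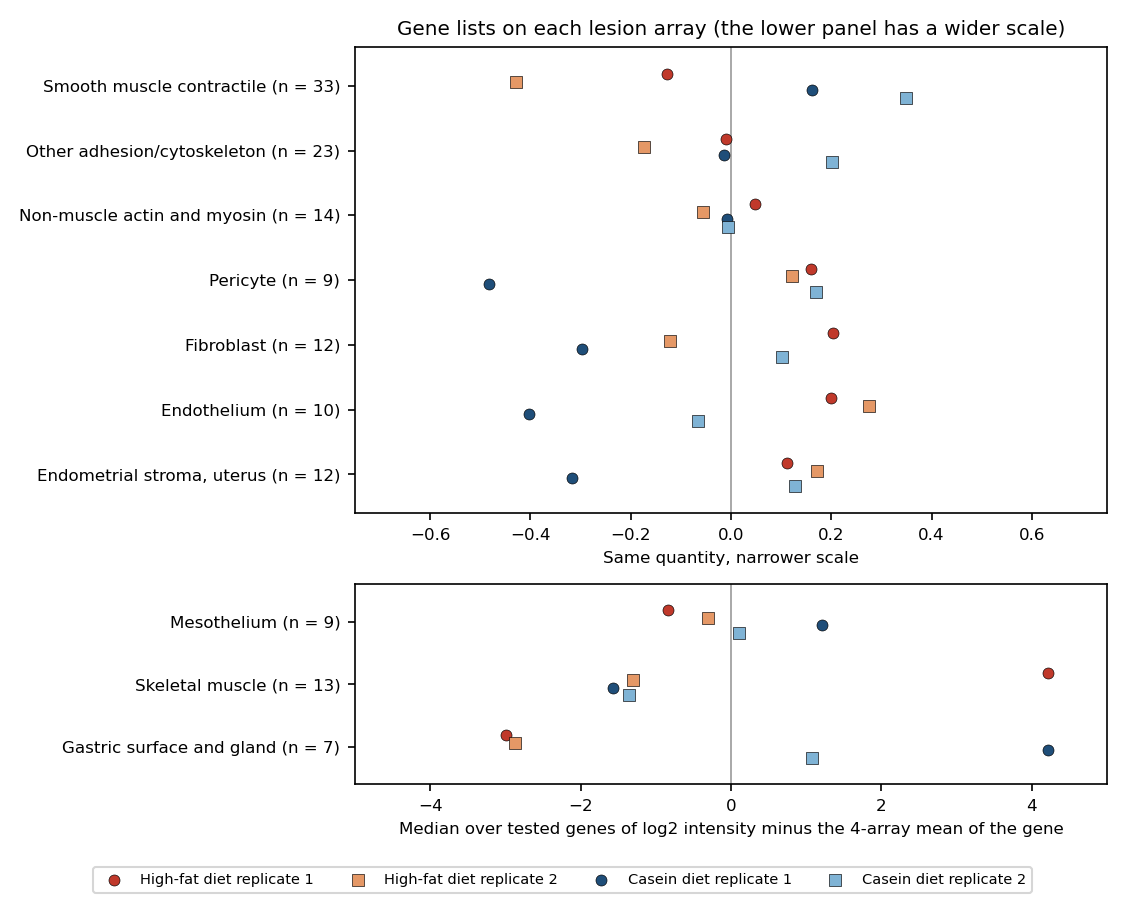
Each symbol is the median, over the tested genes of a list, of the log2 intensity on 1 array minus the gene's 4-array mean, and the lower panel has a wider scale. The contractile genes lie at -0.13 and -0.43 on the high-fat diet and at 0.16 and 0.35 on the casein diet, skeletal muscle stands out in high-fat diet replicate 1, and gastric genes in casein diet replicate 1.

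Other genes of the same machinery were compared on 3 further lists. In other adhesion and cytoskeleton genes of smooth muscle, 20 of 23 tested genes were lower on the high-fat diet, 12 without overlap (19.3% of all tested genes), and the median was -0.19. At an unadjusted p under 0.05 in limma, 4 were lower (2.73% of all tested genes) and 0 were higher (2.24%). Tgfb1i1, the adhesion protein Hic-5, had 338 and 295 on the high-fat diet and 405 and 449 on the casein diet (-0.44, SE 0.13). Dstn, destrin, which severs actin filaments, had 4378 and 4389 on the high-fat diet and 5168 and 5769 on the casein diet (-0.32, SE 0.11). Fhl2, a LIM cofactor and target of SRF, had 182 and 161 on the high-fat diet and 294 and 220.2 on the casein diet (-0.57, SE 0.19). The median of the list was -0.08 with casein diet replicate 2 left out and -0.32 with casein diet replicate 1 left out.

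Non-muscle counterparts of the contractile proteins were divided, with 7 lower and 7 higher of 14 tested genes and a median of -0.02, which was 0.04 without high-fat diet replicate 2. Actb, the cytoplasmic beta-actin, had 13100.4 and 11975 on the high-fat diet and 12328 and 12196 on the casein diet (0.03, SE 0.10). Tpm3 and Tpm4, the tropomyosins of non-muscle cells, differed by -0.11 and 0.02, beside -0.64 and -0.77 for Tpm1 and Tpm2. These are values of the brightest probe sets. With the mean of all probe sets of a gene, Tpm1 and Tpm2 differed by 0.01 and -0.13. Cnn3, the non-muscle calponin, differed by 0.39 (SE 0.25), beside -1.24 for Cnn1 and -0.14 for Cnn2. The difference of Cnn3 came mostly from casein diet replicate 1, and it was 0.06 without that array. Actn4, a non-muscle actinin, had 1250.0 and 1227 on the high-fat diet and 1729 and 1496 on the casein diet (-0.38, SE 0.12). Tagln2, a relative of transgelin in epithelium and other cells, differed by -0.55 (SE 0.34). Its diets overlapped, and the difference was -0.13 without casein diet replicate 1.

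SRF cofactors and other regulators of smooth muscle genes were divided too, 5 lower and 7 higher of 12 tested genes, with a median of 0.11 that was -0.07 without casein diet replicate 1 and -0.01 with high-fat diet replicate 1 left out. At an unadjusted p under 0.05 in limma, 2 were lower and 0 were higher, beside the same 2.73% and 2.24% of all tested genes. Gata6, a transcription factor of smooth muscle and of gut epithelium, had 114 and 93.9 on the high-fat diet and 293 and 187 on the casein diet (-1.18, SE 0.27), and was highest in the array with the most gastric RNA. Jag1, a Notch ligand that promotes smooth muscle differentiation, had 456 and 443 on the high-fat diet and 379.8 and 382 on the casein diet (0.24, SE 0.09).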

How the data were processed

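Probe set intensities on a linear scale were deposited by the authors. GCOS and RMA are named per the submitters' processing notes, and their versions, order and the step to linear values were not stated there. Total RNA was converted to cDNA and biotin-labelled RNA, per the labels' protocols. Array medians ran from 55.1 to 56.5. Scan dates and slides were not given, so no batch could be used. Log2 was taken with no pseudocount. Each gene was represented by its brightest single-symbol probe set, and the 12797 of 18193 genes whose mean log2 value reached the 40th percentile of all probe sets (33.9 as an intensity) were fitted in limma 3.58.1 (R 4.3.3), which was tested on simulated data. Groups came from the titles. Nothing says that arrays came from separate animals, so p-values measure only the spread between these samples, and the number of arrays limits precision. Members and lists were chosen with earlier results of these data known. The rule was to give in full members with an unadjusted p under 0.05 in limma and the 2 brightest of each role. Acta2, Myh11, Myocd, Srf, Mrtfa and Oxtr were included whatever their values. In the other lists the rule named the 3 with the smallest p, and in marker lists the 3 brightest. Not all genes so named in these lists are given, and some genes outside the rule, such as Lmod1, Actb and Myh6, are. A planned comparison of protein sequences was not made. The result of 1 further gene list is not reported here. Alternatives were other normalisations, filters, probe sets, priors, a pseudocount, a replicate block and leaving out each array.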

Additional observations from a re-analysis of the deposited data

How the results depend on the processing

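Across the normalisations, filters, pseudocount of 16, limma-trend, mean of probe sets and replicate block, 31 to 34 contractile genes were tested. Of these, 29 to 31 were lower (51.4% of all tested genes in the main fit), and the median stayed within the spread between arrays of a diet. With the mean of probe sets the median was -0.31, and Tpm2, Synpo2 and Acta2 differed by -0.13, -0.06 and -0.81. In that setting 11 were lower at an unadjusted p under 0.05 in limma, and the share of all genes was not counted. When 1 array was left out, 26 to 31 were lower (49.7% to 53.5% of all tested genes), and the median ranged from -0.64 (without high-fat diet replicate 1) to -0.29. At an unadjusted p under 0.05 in limma, 7 to 15 were lower. They were 7 of 33 without high-fat diet replicate 2 (2.33% of all tested genes), and 9 of 33 without casein diet replicate 2 (7.97%). In these fits 1 diet has a single array, assumed to vary like the other diet, whose 2 arrays alone give the spread. Leaving out 1 array gave 0 to 17 genes past an adjusted p under 0.05 over the whole table, the 17 without casein diet replicate 2. Without the genes also known from skeletal or heart muscle, 19 of 21 were lower (51.4% of all tested genes). At an unadjusted p under 0.05 in limma, 10 of these 21 were lower (2.73%), with fewer genes counted. Over genes, the deviations of same-numbered arrays from the mean of their diet had a correlation of -0.02. With 2 arrays per diet this does not settle whether the arrays were paired. With the replicate block 12 contractile genes were lower at an unadjusted p under 0.05 in limma (2.45% of all tested genes). In that fit 0 genes passed an adjusted p under 0.05 over the whole table.

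Signs turned with other probe sets for Tpm1 (1.12), Tpm2 (1.03 and 0.00015), Ppp1r12b (0.10), Synpo2 (0.87 and 0.33), Pdlim7 (0.0339) and Cald1 (0.02), and with the mean of probe sets for Tpm1 (0.00903). With 1 array left out, Des ranged from -0.72 to 0.0195 and Srf from -0.42 to 0.15. The cause was not tested. Of 33 contractile genes, 19 changed sign, or changed more than 1.5 times in size, on leaving out an array, among them 3 of the 16 with an unadjusted p under 0.05. Kcnmb1 and the high-fat diet values of Pln lie near the dim end of the array, where differences are less certain.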
